A study of Mus musculus with 6 samples.

Results

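Hmgcs1, Sqle, Insig1, Idi1, Fdps, Fdft1 and Lss, 7 genes of cholesterol synthesis and of its feedback control, were followed in mouse acute myeloid leukemia cells after inhibition of dihydroorotate dehydrogenase (DHODH), the pyrimidine synthesis enzyme. The genes were taken by name from a table of 54838 genes, with earlier results of these data known. Of these, 6 encode enzymes and 1, Insig1, encodes a sterol-responsive regulator, and no receptor for cholesterol uptake is among them, so uptake genes are described separately below. All 7 were among the 11092 genes with enough reads to be tested. RNA was sequenced from I1DN leukemia, a C57BL/6 model carrying IDH1R132H, DNMT3AR882H and NrasG12D, which vehicle and treated cells share. The 3 alleles were introduced together into fetal liver stem and progenitor cells, and banked cells from a diseased mouse were grafted into irradiated congenic Ptprca hosts, so the mice may all carry the descendants of a single leukemia. The promoters that drive the alleles and the age of the mice were not given in the sources used here. There were 3 mice given vehicle and 3 given the DHODH inhibitor AG636 by gavage at 100 mg/kg b.i.d. The treatment lasted 1 day according to a legend of the publication and 4 days according to the legend of its dataset. Cells were sorted from bone marrow and spleen as cKit+CD11b-, a fraction also written cKit-high CD11b-low, to hold the leukemia stem cell-enriched population. The irradiation was sublethal, so each host may have kept non-leukemic blood cells of its own. The leukemia also carried a fluorescent reporter, and whether the sort for sequencing used it was not given in the sources used here. Libraries held 4634963 to 7906589 assigned reads, so that 3 reads amounted to 0.379 to 0.647 CPM, the unit of expression used here (reads of a gene scaled to a common library total). The 7 genes together took 0.0113 to 0.0162% of the reads of a library.

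Cells make cholesterol from acetyl-CoA through mevalonate. Hmgcs1 makes the precursor of mevalonate, and Idi1 and Fdps turn the resulting isoprene units into farnesyl diphosphate, which is also the source of geranylgeranyl groups, dolichol and the ubiquinone tail. Fdft1 joins farnesyl units to squalene and thereby commits them to sterols, Sqle epoxidizes squalene, and Lss closes the ring to give lanosterol. Transcription of these enzymes is driven by SREBP factors, above all SREBP2, which are held in the endoplasmic reticulum by SCAP and the INSIG proteins while sterols are plentiful. Insig1 is itself an SREBP target, whereas oxysterols activate the LXR receptors, which raise cholesterol exporters. Leukemic cells are known to take up and make cholesterol as they divide.

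The 250 bases before the transcription start are shown for the members that the RefSeq table of promoters (GRCm38.p6, the patched form of the mm10 build of the counts) holds, since these genes share regulators and their promoters can be set beside their response. Capitals mark matches on either strand to TCACNCCAC (a sterol regulatory element, SRE, written with 1 free base), CCAAT (the NF-Y box) and GGGCGG (the Sp1 box). On the other strand the NF-Y box reads ATTGG and the Sp1 box CCGCCC. All 4 genes lie on the plus strand. The windows were chr13:119690101-119690350 for Hmgcs1, chr5:28071162-28071411 for Insig1, chr13:8885356-8885605 for Idi1 and chr10:76531355-76531604 for Lss. They end at the RefSeq start. The gene bounds of the counts, given below, begin inside the windows of Insig1, Idi1 and Lss. All marked matches of Idi1 lie after its start in those bounds.
Hmgcs1: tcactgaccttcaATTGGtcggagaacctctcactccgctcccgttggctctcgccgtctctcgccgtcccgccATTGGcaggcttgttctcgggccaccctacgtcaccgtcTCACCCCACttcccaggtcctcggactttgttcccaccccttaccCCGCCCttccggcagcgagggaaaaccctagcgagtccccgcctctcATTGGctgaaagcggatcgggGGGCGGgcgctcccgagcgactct
Insig1: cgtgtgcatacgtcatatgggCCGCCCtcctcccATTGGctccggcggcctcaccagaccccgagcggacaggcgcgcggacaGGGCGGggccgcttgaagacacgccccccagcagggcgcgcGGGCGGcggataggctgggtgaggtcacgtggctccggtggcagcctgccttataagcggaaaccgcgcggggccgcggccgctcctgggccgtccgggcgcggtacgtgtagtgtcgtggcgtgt
Idi1: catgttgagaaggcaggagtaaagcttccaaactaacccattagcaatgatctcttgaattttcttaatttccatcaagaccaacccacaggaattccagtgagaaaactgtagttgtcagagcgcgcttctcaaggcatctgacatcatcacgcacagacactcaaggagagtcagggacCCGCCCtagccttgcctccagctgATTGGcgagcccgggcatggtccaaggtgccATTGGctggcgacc
Lss: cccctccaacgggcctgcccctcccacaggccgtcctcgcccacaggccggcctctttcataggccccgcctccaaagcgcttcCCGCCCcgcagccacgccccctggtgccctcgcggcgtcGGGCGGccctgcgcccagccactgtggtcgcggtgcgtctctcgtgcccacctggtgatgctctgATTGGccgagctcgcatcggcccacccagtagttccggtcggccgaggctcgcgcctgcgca

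In these windows, extended by 50 bases after the start, the NF-Y box and the Sp1 box were found in 4 of 4 members. Among the promoters of all 27025 genes in the table, 41.1% held CCAAT and 38.2% held GGGCGG, and among the 8417 tested genes with a promoter the shares were 43.4% and 69.7%. The sterol regulatory element was found in Hmgcs1 alone of the 4, with its first base at position -137, and in 1.44% of all promoters. Insig1 alone held the E-box CACGTG, at -101, which 8.09% of all promoters and 12.2% of those of tested genes held. Among the 10 other sterol-ring enzymes with a promoter in the table, 9 held the NF-Y box and 10 the Sp1 box. A match to these letters is a description of the sequence and does not show binding, and a missing match says only that the letters are not in the window.

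AG636-treated cells held lower levels of Sqle and Insig1, 1.88-fold and 1.95-fold below vehicle. These 2 of the 7 genes passed the test for lower expression and 0 passed it for higher expression, where 11.0% of all 11092 tested genes were called lower and 10.3% higher. When libraries were scaled by their totals alone, the calls over all genes went from 1222 lower and 1146 higher to 913 lower and 1483 higher, and 1 of the 7 genes, Sqle, was called. A gene was called when edgeR's quasi-likelihood test gave a Benjamini-Hochberg adjusted p under 0.05. Idi1 and Fdps did not pass the test, although every treated mouse lay below every vehicle mouse. Hmgcs1, Fdft1 and Lss overlapped between the groups. The 3 mice of each group were therefore separated, treated below vehicle, for 4 of 7 genes, compared with 20.6% of all genes tested. The fold change was below 0 on the log2 scale for 6 of 7, compared with 47.7% of all genes, and the median log2 fold change was -0.68 for the 7 and 0.03 for all genes. Summed over the 7 genes, vehicle mice held 171, 157 and 142 CPM and treated mice 126, 110 and 117 CPM, where values of a group are always listed in the order of mice 1, 2 and 3.

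**Figure D1:**
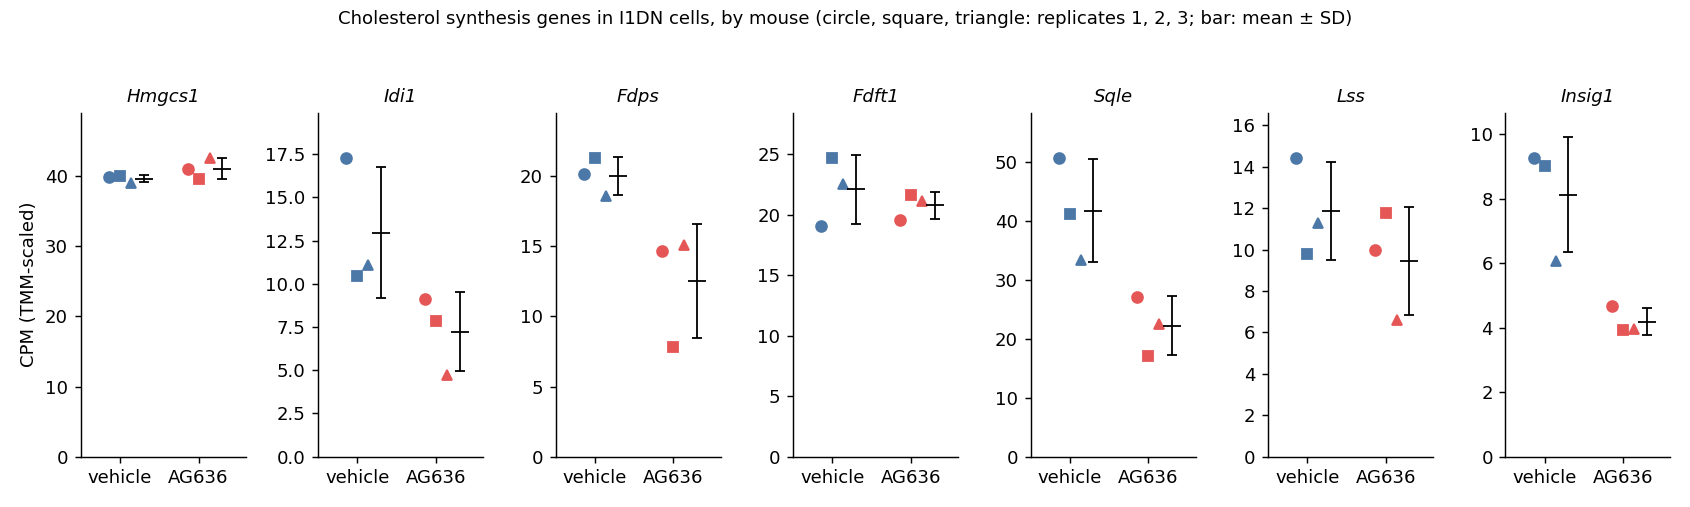
CPM of each of the 7 genes (vertical axes, linear from 0, scaled by TMM) in the 3 vehicle and 3 AG636 mice, with points for mice and bars for the mean ± SD of a group. For Sqle, Insig1, Idi1 and Fdps every AG636 point lies below every vehicle point, while Hmgcs1, Fdft1 and Lss overlap.

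Hmgcs1, the cytosolic HMG-CoA synthase at the entry to the pathway (ENSMUSG00000093930, chr13:119690379-119708260, plus strand), was held at 39.9, 40.0 and 39.1 CPM in the vehicle mice and at 41.0, 39.6 and 42.7 CPM in the AG636 mice. The mean was 39.7 ± 0.525 CPM (SD, n = 3) under vehicle and 41.1 ± 1.54 CPM (SD, n = 3) under AG636. All 6 mice lay close together and the groups overlapped. Its log2 fold change was 0.05 (SE 0.14, 95% interval -0.25 to 0.35, edgeR adjusted p = 0.815). The interval therefore held both a small decrease and a small increase.

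Idi1, the isopentenyl diphosphate isomerase (ENSMUSG00000058258, chr13:8885501-8892451, plus strand), stood at 17.3, 10.5 and 11.1 CPM under vehicle and at 9.13, 7.84 and 4.72 CPM under AG636. Vehicle mouse 1 was the highest, and the groups met without overlapping. The log2 fold change was -0.84 (SE 0.31, 95% interval -1.53 to -0.15, edgeR adjusted p = 0.0768), which did not pass the threshold with 336 reads in all 6 libraries. Fdps, the farnesyl diphosphate synthase (ENSMUSG00000059743, chr3:89093588-89101959, minus strand), stood at 20.1, 21.3 and 18.6 CPM under vehicle and at 14.7, 7.84 and 15.1 CPM under AG636. AG636 mouse 2 was far below the other two. The log2 fold change was -0.68 (SE 0.25, 95% interval -1.24 to -0.12, edgeR adjusted p = 0.0798), and it was -0.43 without AG636 mouse 2. When no gene was removed for low counts, both genes were called lower, with edgeR adjusted p values of 0.0235 for Idi1 and 0.0350 for Fdps. That setting also raised the calls over all genes, from 1222 lower and 1146 higher to 1620 lower and 1537 higher. The last 500 bases of Fdps, where this method places its reads, are nearly repeated elsewhere in the genome, with 99.1% identity over 445 bases in the predicted gene Gm3571. Gm3571 held 4 reads and Fdps 552, and how reads that map to several places were counted was not given in the sources used here, so the Fdps level is uncertain.

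Fdft1, the squalene synthase (ENSMUSG00000021273, chr14:63145150-63179578, minus strand), stood at 19.1, 24.7 and 22.6 CPM under vehicle and at 19.5, 21.7 and 21.1 CPM under AG636. The groups overlapped, and the log2 fold change was -0.09 (SE 0.18, 95% interval -0.49 to 0.30, edgeR adjusted p = 0.736). All of the last 500 bases of Fdft1 lie within Ctsb, the gene of the lysosomal protease cathepsin B, on the opposite strand. Ctsb held 4772 reads and Fdft1 713, and Ctsb had a log2 fold change of 0.48 (SE 0.16, edgeR adjusted p = 0.0615). Whether reads were counted by strand was not given in the sources used here, so reads of the pair cannot be told apart and the Fdft1 value is uncertain.

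Sqle, the squalene epoxidase (ENSMUSG00000022351, chr15:59315077-59331192, plus strand), was lower in every treated mouse. It stood at 50.8, 41.2 and 33.4 CPM in vehicle mice and at 27.2, 17.1 and 22.5 CPM in AG636 mice. The mean fell from 41.8 ± 8.71 to 22.3 ± 5.04 CPM (SD, n = 3 each), a log2 fold change of -0.91 (SE 0.22, 95% interval -1.40 to -0.43, edgeR adjusted p = 0.0182). The lowest vehicle mouse was still above the highest treated mouse. The call was lost when vehicle mouse 1 or 2 or AG636 mouse 3 was left out, with adjusted p values of 0.0549, 0.0574 and 0.0612. Per read of Hmgcs1, which is upstream in the pathway, Sqle gave 1.27, 1.03 and 0.856 reads in vehicle mice and 0.663, 0.432 and 0.527 in AG636 mice. The groups did not overlap (two-sided exact permutation p = 0.1, and no smaller value is possible with 3 mice a group). This was 1 of 3 such ratios computed after the values were seen, and the other two, Insig1 over Insig2 and Fdps over Ggps1, overlapped between the groups (exact permutation p = 0.3 each). Lss, the lanosterol synthase that acts on the product of Sqle (ENSMUSG00000033105, chr10:76531588-76557138, plus strand), stood at 14.4, 9.81 and 11.3 CPM under vehicle and at 9.98, 11.8 and 6.61 CPM under AG636. Its groups overlapped, and the log2 fold change was -0.33 (SE 0.27, 95% interval -0.93 to 0.28, edgeR adjusted p = 0.419), with values of -0.52 to -0.12 when a mouse was left out.

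Insig1 (ENSMUSG00000045294, chr5:28071363-28078662, plus strand), which retains SCAP and SREBP in the endoplasmic reticulum, stood at 9.27, 9.03 and 6.06 CPM under vehicle. AG636 mice held 4.67, 3.92 and 3.96 CPM. All 3 treated mice lay within a narrow range below the lowest vehicle mouse. The mean fell from 8.12 ± 1.79 to 4.18 ± 0.423 CPM (SD, n = 3 each), a log2 fold change of -0.96 (SE 0.29, 95% interval -1.60 to -0.33, edgeR adjusted p = 0.0388). The gene had 212 reads in all, and the call was lost without any mouse other than vehicle mouse 3, with adjusted p values of 0.111 and 0.120 without vehicle mice 1 and 2 and of 0.0771, 0.0753 and 0.118 without AG636 mice 1, 2 and 3. Its paralog Insig2 stood at 8.74, 11.6 and 17.6 CPM under vehicle and 12.7, 12.8 and 10.9 CPM under AG636. Insig2 overlapped between the groups, with a log2 fold change of -0.05 (SE 0.27, edgeR adjusted p = 0.914) that was 0.04 when libraries were scaled by their totals alone.

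The other enzymes of the pathway were read from lists of known function. In the sterol-ring list, 3 of 10 genes were called lower, 0 higher and 7 did not pass, with a median log2 fold change of -0.29. Among all genes tested, 11.0% were called lower and 10.3% higher. Cyp51, the lanosterol demethylase, stood at 42.1, 40.7 and 35.9 CPM under vehicle and at 24.4, 19.8 and 21.9 CPM under AG636. Cyp51 had a log2 fold change of -0.85 (SE 0.16, edgeR adjusted p = 0.00879), and this call was kept without any single mouse. Cyp51, with 1046 reads, shares its locus with Akap9, with 5354 reads, on the opposite strand. Whether reads were counted by strand was not given in the sources used here, so the Cyp51 value may hold Akap9 reads. Msmo1 and Nsdhl, which act later in removing methyl groups from the ring, also fell. Msmo1 went from 48.9 ± 10.2 to 32.2 ± 2.84 CPM (log2 fold change -0.61, SE 0.18, edgeR adjusted p = 0.0403) and Nsdhl from 21.0 ± 2.50 to 12.7 ± 1.97 CPM (-0.73, SE 0.20, edgeR adjusted p = 0.0297), each SD over n = 3. Treated and vehicle mice did not overlap for either gene. Of the fits that left out a mouse, the Msmo1 call was kept only without vehicle mouse 3, with adjusted p values of 0.126 and 0.108 without vehicle mice 1 and 2 and of 0.0710, 0.0768 and 0.124 without AG636 mice 1, 2 and 3, and it was lost with libraries scaled by their totals alone (0.0599). The Nsdhl call was lost without vehicle mouse 1 (0.0771) or 2 (0.0840) and without AG636 mouse 1 (0.0949) or 3 (0.0964). Dhcr7, a late reductase of the pathway, had a log2 fold change of -0.68 (SE 0.23) that did not pass (edgeR adjusted p = 0.0622).

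In the list of other mevalonate and isoprenoid enzymes 0 of 6 genes were called in either direction, with a median log2 fold change of -0.34. Mvd, the mevalonate diphosphate decarboxylase, had a log2 fold change of -0.53 (SE 0.38, edgeR adjusted p = 0.338), which was -0.16 without AG636 mouse 2. Ggps1, which diverts farnesyl diphosphate to geranylgeranyl diphosphate, averaged 24.1 ± 3.57 CPM under vehicle and 23.9 ± 5.91 CPM under AG636 (SD, n = 3 each). Ggps1, with 778 reads, overlaps Arid4b, with 4748 reads, on the opposite strand. Over all 23 cholesterol synthesis genes listed, the members included, 5 were called lower, 0 higher and 18 did not pass, where 11.0% of all genes were called lower and 10.3% higher. The log2 fold change was below 0 for 19 of these 23, where 47.7% of all genes were below 0, and 11 of 23 had treated mice entirely below vehicle mice, where 20.6% of all genes did. Sc5d alone of the 23 had treated mice entirely above, at 19.1 to 22.3 CPM against 15.2 to 16.1 CPM, and did not pass the test (edgeR adjusted p = 0.0919).

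**Figure D2:**
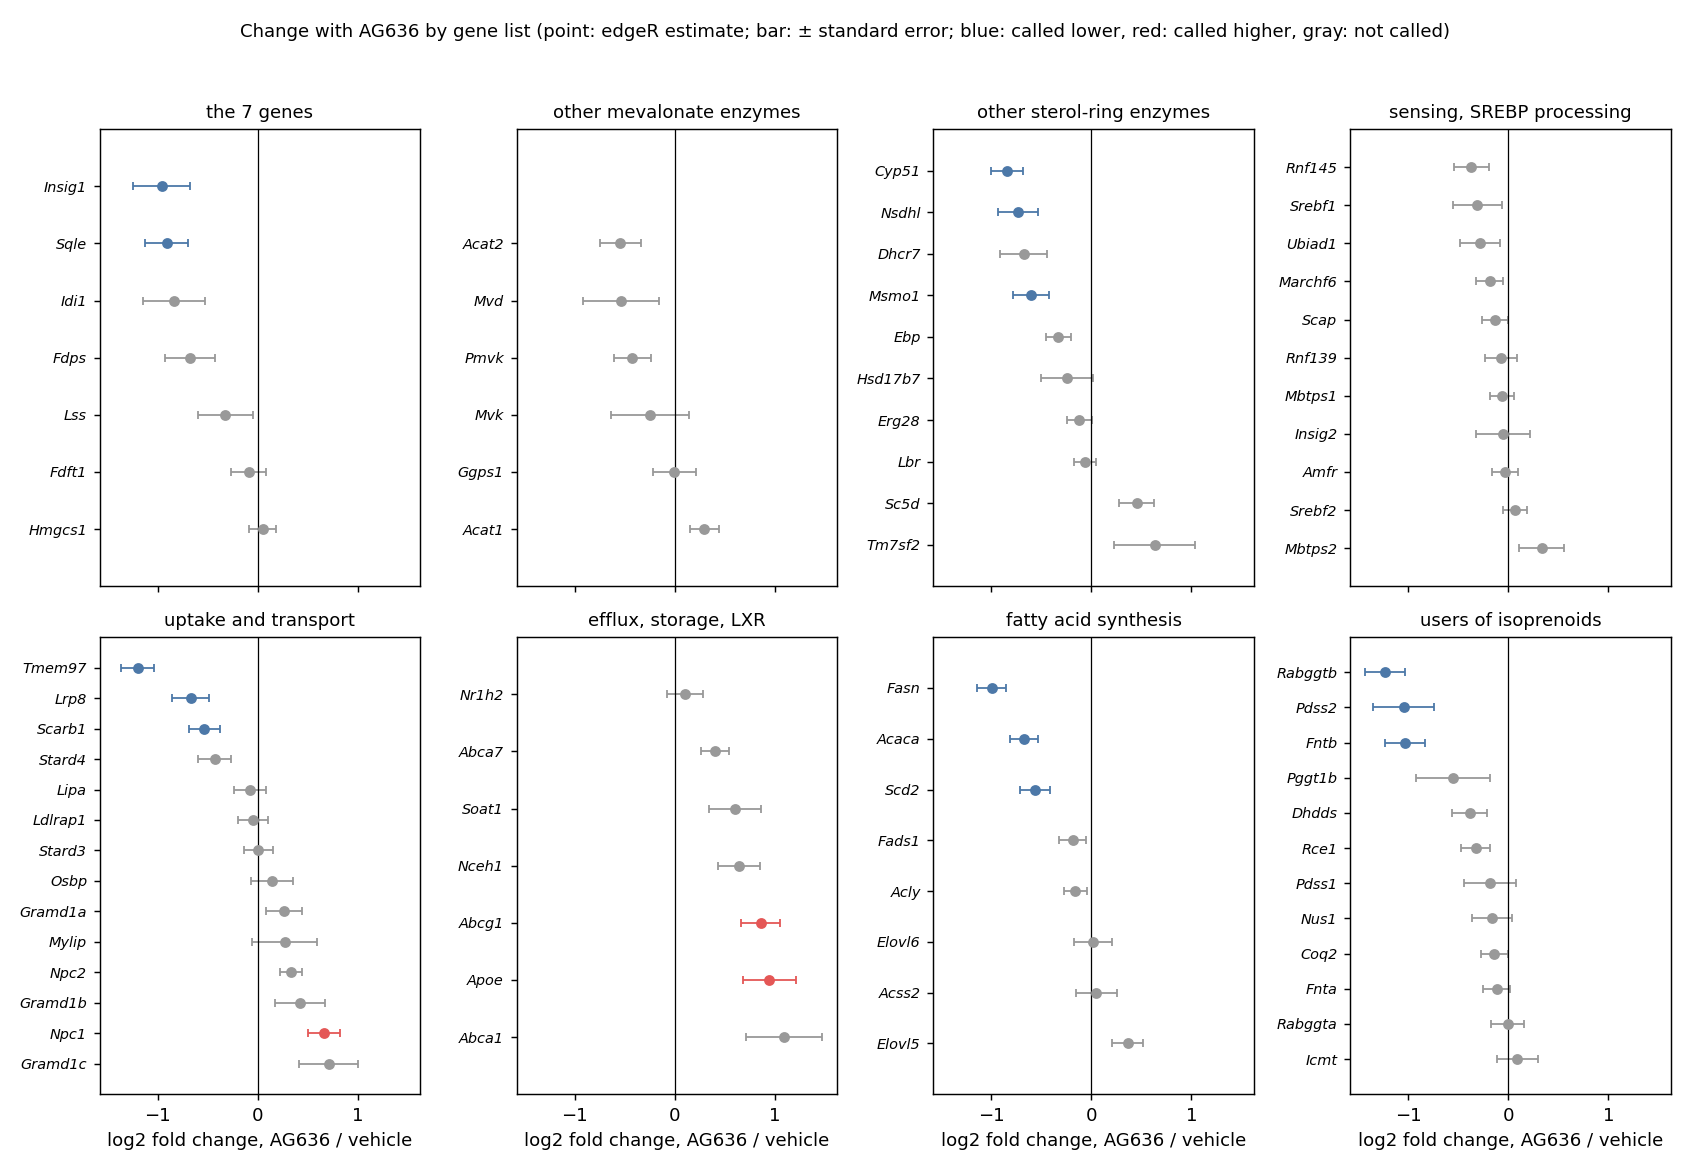
Log2 fold change of AG636 over vehicle with its standard error (horizontal axes) for each listed gene that was tested, with 1 panel per list, blue for genes called lower, red for higher and gray for not called. Sqle and Insig1 are the members called lower, Tmem97 lies farthest below 0 among the uptake and transport genes plotted, and the efflux genes lie above 0.

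The genes that sense sterols and process SREBP were not called. In this list 0 of 11 genes passed the test in either direction, where 21.3% of all genes did. The median log2 fold change was -0.07. Srebf2, the gene of SREBP2, averaged 114 ± 10.3 CPM under vehicle and 120 ± 4.30 CPM under AG636 (SD, n = 3 each), with a log2 fold change of 0.07 (SE 0.12, 95% interval -0.20 to 0.33, edgeR adjusted p = 0.706). Scap, its escort protein, had a log2 fold change of -0.13 (SE 0.13, edgeR adjusted p = 0.494). Srebf1 stood at 47.6 CPM in vehicle mouse 1 and at 23.8 to 29.7 CPM in the other 5 mice. Its log2 fold change of -0.31 (SE 0.24, edgeR adjusted p = 0.391) was 0.01 without that mouse. Srebf1, with 993 reads, overlaps Rai1, with 968 reads, on the opposite strand. RNA levels do not measure cleavage of the SREBP proteins.

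Uptake and intracellular transport genes moved in both directions. Of 15 genes, 14 were tested, 3 were called lower, 1 higher and 10 did not pass, and the median log2 fold change was 0.07. Among all genes tested, 11.0% were called lower and 10.3% higher. Tmem97, an endoplasmic reticulum protein that binds NPC1, stood at 133, 125 and 120 CPM under vehicle and at 67.1, 55.1 and 42.1 CPM under AG636. It had a log2 fold change of -1.20 (SE 0.17, edgeR adjusted p = 0.00320). The groups stood far apart, and the call was kept without any single mouse.

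Lrp8, an apolipoprotein E receptor, fell from 29.5 ± 4.52 to 18.5 ± 1.01 CPM (log2 fold change -0.67, SE 0.18, edgeR adjusted p = 0.0270). Its call was lost without vehicle mouse 2 (0.0862) or 3 (0.0578) and without AG636 mouse 1 (0.0811) or 3 (0.0684). Scarb1, the high-density lipoprotein receptor, fell from 117 ± 21.4 to 80.9 ± 6.38 CPM (log2 fold change -0.53, SE 0.16, edgeR adjusted p = 0.0361; SD, n = 3 each for both genes). Its call was lost without vehicle mouse 1 (0.0948) or 2 (0.116) and without AG636 mouse 1 (0.0880) or 3 (0.124), and with libraries scaled by their totals alone (0.0583). Npc1, which exports cholesterol from lysosomes, moved the other way, from 19.1, 23.4 and 21.5 CPM under vehicle to 32.5, 35.7 and 33.4 CPM under AG636. Npc1 had a log2 fold change of 0.66 (SE 0.16, edgeR adjusted p = 0.0197), and its call was lost without vehicle mouse 1 (0.0725) or AG636 mouse 1 (0.0517) or 3 (0.0614). Npc1 overlaps Rmc1 on the opposite strand. Stard4, a cytosolic sterol carrier, had a log2 fold change of -0.43 (SE 0.17, edgeR adjusted p = 0.0879). Vldlr had 16 reads in all 6 libraries and was not tested.

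**Figure D3:**
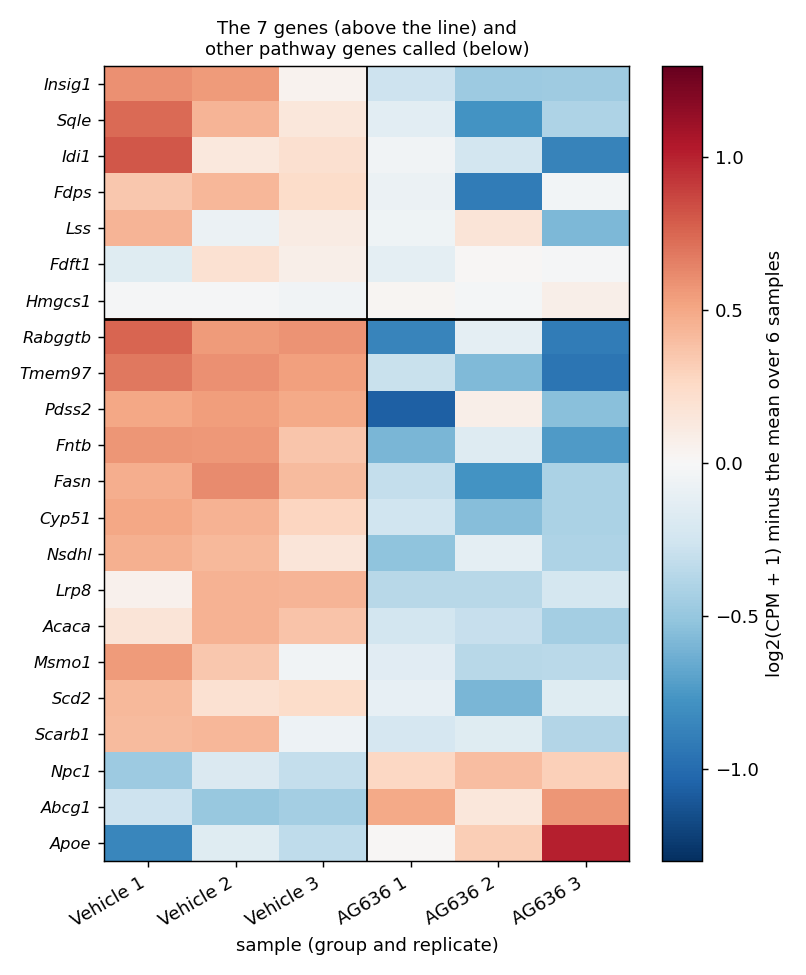
Log2(CPM + 1) of the 7 members (rows above the line) and of the 15 other listed genes that were called (rows below it) in the 6 mice (columns), where the colour gives the distance of a mouse from the mean of its gene over the 6 mice. Synthesis and uptake genes that were called lower are below their mean in the 3 AG636 columns, while Npc1, Abcg1 and Apoe are above it.

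Among genes of cholesterol export and storage, Abcg1 and Apoe rose. In this list 7 of 10 genes were tested, 2 were called higher, 0 lower and 5 did not pass, and the log2 fold change was above 0 for 7 of 7 with a median of 0.64. Treated mice lay entirely above vehicle mice for 5 of the 7, where 20.5% of all genes did. Calls over all genes were 10.3% higher and 11.0% lower. Abcg1, which exports cholesterol to high-density lipoprotein, stood at 15.2, 12.8 and 13.4 CPM under vehicle and at 26.3, 20.6 and 27.9 CPM under AG636. It rose 1.81-fold (log2 fold change 0.86, SE 0.19, edgeR adjusted p = 0.0146), and the call was lost without vehicle mouse 2 (0.0595) or AG636 mouse 1 (0.0522) or 3 (0.0620). Apoe, the lipoprotein that carries exported cholesterol, stood at 23.4, 38.3 and 34.1 CPM under vehicle and at 43.3, 54.0 and 87.4 CPM under AG636. It had a log2 fold change of 0.95 (SE 0.27, edgeR adjusted p = 0.0329), which was kept only when AG636 mouse 1 or 2 was left out and was lost without vehicle mouse 1 (0.0968), 2 (0.0623) or 3 (0.0630) or AG636 mouse 3 (0.127). Macrophages also express Apoe. The macrophage marker C1qb was called higher in the same comparison. It had 18, 73 and 75 reads in the AG636 mice and 21, 16 and 15 in vehicle mice. Of the 5 macrophage genes tested, C1qb alone was called, and 4 had a log2 fold change above 0 and 1 below. The part of macrophages in the Apoe change was not tested. Abca1, the exporter to lipid-free apolipoprotein, had 113 reads and a log2 fold change of 1.10 (SE 0.38, edgeR adjusted p = 0.0646), which passed without vehicle mouse 3 (0.0479). Soat1, which esterifies cholesterol for storage, had a log2 fold change of 0.61 (SE 0.26, edgeR adjusted p = 0.117), which also passed without vehicle mouse 3 (0.0221).

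SREBP factors also drive fatty acid synthesis. In that list 8 of 12 genes were tested, with a median log2 fold change of -0.17. The log2 fold change was below 0 for 5 of the 8 and above 0 for 3, where 47.7% of all genes were below 0. Of the 8 genes, 3 were called lower, 0 higher and 5 did not pass. The shares over all genes tested were 11.0% lower and 10.3% higher. Fasn, the fatty acid synthase, stood at 202, 221 and 193 CPM under vehicle and at 116, 83.9 and 109 CPM under AG636. The groups stood far apart, with a log2 fold change of -0.996 (SE 0.14, edgeR adjusted p = 0.00354) that was kept without any single mouse. Acaca, which makes its malonyl-CoA substrate, fell from 68.4 ± 6.87 to 43.0 ± 3.20 CPM (log2 fold change -0.67, SE 0.14, edgeR adjusted p = 0.0119) and lost its call only without AG636 mouse 3 (0.0536). Scd2, a fatty acid desaturase, fell from 193 ± 16.2 to 131 ± 22.9 CPM (log2 fold change -0.56, SE 0.15, edgeR adjusted p = 0.0254; SD, n = 3 each for both genes), and its call was lost without vehicle mouse 1 (0.0721) or 2 (0.0586) or AG636 mouse 3 (0.0570). Acly, which supplies acetyl-CoA to both pathways, had a log2 fold change of -0.16 (SE 0.11, edgeR adjusted p = 0.330). Scd1 had 16 reads in all and was not tested.

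Enzymes that use the isoprenoids made by Idi1 and Fdps included some of the larger decreases. Of 12 genes tested, 3 were called lower, 0 higher and 9 did not pass. Fntb, the catalytic subunit of the protein farnesyltransferase, stood at 31.0, 30.6 and 26.5 CPM under vehicle and at 13.2, 18.1 and 11.9 CPM under AG636 (log2 fold change -1.03, SE 0.20, edgeR adjusted p = 0.00947). Rabggtb, a subunit of the enzyme that geranylgeranylates Rab proteins, stood at 175, 152 and 154 CPM and at 56.3, 94.4 and 54.2 CPM (log2 fold change -1.23, SE 0.20, edgeR adjusted p = 0.00521). Both were separated between the groups and kept their calls without any single mouse. Fntb overlaps Churc1 on its own strand, and the Rabggtb locus also holds small nucleolar RNA genes. Pdss2, a subunit that builds the ubiquinone tail, went from 14.0 ± 0.317 to 6.79 ± 3.07 CPM (SD, n = 3 each), a log2 fold change of -1.04 (SE 0.30, edgeR adjusted p = 0.0363). Of the fits that left out a mouse, its call was kept only without AG636 mouse 2 and was lost without vehicle mice 1, 2 and 3 (0.0673, 0.0978 and 0.0574) and without AG636 mice 1 and 3 (0.0980 and 0.114), and it was lost with libraries scaled by their totals alone (0.0511). Over the 68 tested genes of the lists other than the members, 12 were called lower and 3 higher, or 17.6% and 4.41%, beside 11.0% and 10.3% of all genes.

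The members were also compared with the other genes by pattern. The mean centred log2 CPM of the 7 members was 0.42, 0.25 and 0.12 in vehicle mice and -0.10, -0.34 and -0.35 in AG636 mice. The genes outside the lists nearest to this profile over the 6 samples, by root-mean-square difference, were Arvcf (0.028), Ubap2 (0.044), Dad1 (0.047), Dars (0.049) and Pgrmc2 (0.051). Their log2 fold changes ran from -0.59 for Arvcf to -0.48 for Ubap2, and Arvcf did not pass the test (edgeR adjusted p = 0.148). The members themselves lay farther from their mean profile, from 0.215 for Insig1 to 0.311 for Hmgcs1. Nearness to the mean is therefore not likeness to each member.

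Some marker genes of cell types moved in the same comparison. The gate gene Kit was present in every library, at 43.1, 31.8 and 41.0 CPM under vehicle and 46.3, 37.3 and 44.7 CPM under AG636 (log2 fold change 0.15, edgeR adjusted p = 0.550). Kit was listed with Cd34, Myb, Flt3 and Ptprc, which are not named in the sort gate. Of the 4 tested genes of this list, Ptprc, the gene of the leukocyte antigen CD45, was called higher (log2 fold change 0.65, edgeR adjusted p = 0.0142). Ptprc stood at 98.4, 119.8 and 128.5 CPM under vehicle and 154.8, 192.8 and 197.3 CPM under AG636. Flt3 had too few reads to be tested, with 3, 4 and 4 reads under vehicle and 13, 21 and 9 under AG636. Itgam, the gene of CD11b, was also present and rose from 12.1, 18.3 and 27.0 CPM to 60.1, 31.3 and 41.2 CPM (log2 fold change 1.21, edgeR adjusted p = 0.0219). Of the 7 mature myeloid genes, 6 were called higher and S100a8 was not, and their sum was 1021 to 2355 CPM under vehicle and 2859 to 5879 CPM under AG636. Over all genes tested, 10.3% were called higher and 11.0% lower. Of the 5 macrophage genes tested, 1 was called higher, and the sum of the list was 17.9 to 20.5 CPM under vehicle and 21.2 to 47.8 CPM under AG636. Of the 4 erythroid genes, Klf1 was called lower, with a log2 fold change of -1.10 (edgeR adjusted p = 0.0238), and the sums overlapped at 895 to 2475 CPM and 1256 to 1820 CPM. Vehicle mouse 1 had the highest erythroid sum and the lowest mature myeloid sum. It also had the highest Sqle, Insig1, Idi1 and Lss of all 6 mice, but the lowest Fdft1, at 19.1 CPM. Fdps was highest in vehicle mouse 2, at 21.3 CPM, and Hmgcs1 in AG636 mouse 3, at 42.7 CPM. B cell genes summed to 5.53 to 14.2 CPM under vehicle and 13.8 to 19.3 CPM under AG636. Most of this sum was Cd79b, at 5.35, 12.2 and 14.0 CPM under vehicle and 19.1, 13.2 and 14.0 CPM under AG636. Cd79b was the only B cell gene with enough reads to be tested, overlapped between the groups and was not called (edgeR adjusted p = 0.250). T cell genes summed to 0.535 to 6.41 CPM under vehicle and 1.27 to 3.92 CPM under AG636. Ms4a1 and Pax5 were at 0 in several libraries, and no marker was at 0 in all 6. Bulk RNA does not assign these transcripts to the leukemic cells or to other cells, and their source was not tested. The part of any cell type in the changes of the cholesterol genes was not tested either. Fewer cells of a type and less RNA per cell cannot be told apart in bulk RNA.

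**Figure D4:**
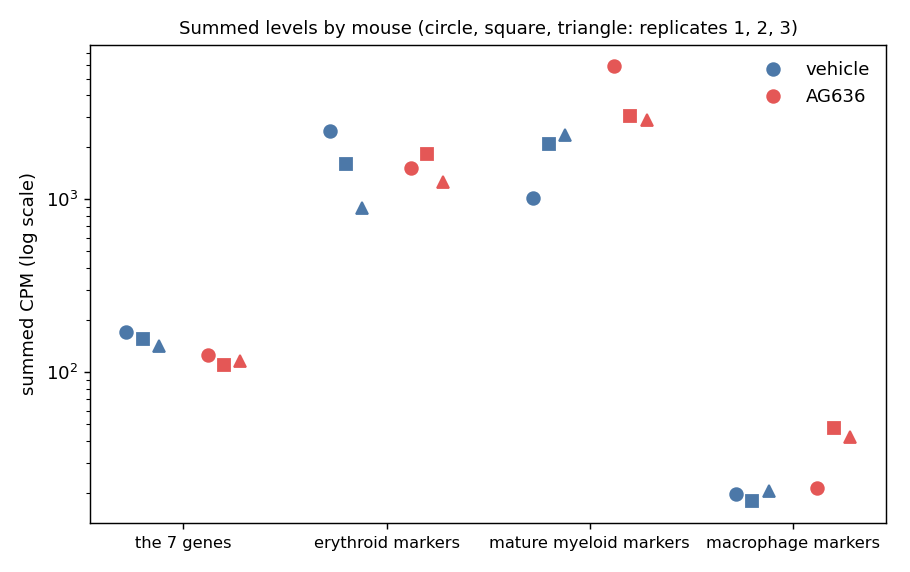
Summed CPM (vertical axis, log scale) of the 7 members and of the erythroid, mature myeloid and macrophage markers in the 3 vehicle and 3 AG636 mice, with points for mice. The member sum is 142 to 171 CPM under vehicle and 110 to 126 CPM under AG636, the mature myeloid sum is higher in all 3 AG636 mice, and the erythroid sums overlap.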

How the data were processed

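RNA sequencing of sorted I1DN cells from 3 vehicle and 3 AG636 mice was analysed, with groups taken from the labels. The authors deposited raw counts of reads per gene. Libraries were made with the QuantSeq 3' kit, which reads transcript ends, and no molecular identifiers were described. Reads were trimmed with cutadapt (1.9.1 in the submitters' processing notes), mapped to mm10/GRCm38 with HISAT2 2.0.4 and counted with featureCounts of Subread (1.5.0-p3 in the same notes). The annotation release was not given in the sources used here.

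Symbols came from GENCODE for 54723 of 54838 identifiers. Genes were kept with filterByExpr of edgeR 4.0.16 (minimum count 10, minimum total 15), scaled by TMM and tested with the quasi-likelihood test in R 4.3.3, with Benjamini-Hochberg adjustment over 11092 genes and a threshold of 0.05. It called 2368 genes, or 21.3%, and 4112 had an unadjusted p under 0.05. CPM use the scaled library sizes. Alternatives used DESeq2 1.42.0, limma-voom 3.58.1 (limma is the package of the study), other scalings and filters, and leaving out each mouse. Same-numbered samples are different mice. Replicates within a group differed beyond counting noise. The floor of 3 reads covers counting error only.

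The members and the gene lists were chosen with earlier results of these data known. Named genes are the members, every listed gene that was called, the best known genes of each list, and 5 genes of like pattern. Sc5d, C1qb, Klf1, Ptprc, Flt3, Cd79b and 3 ratios were chosen after their values were seen. The promoter windows for Sqle, Fdps and Fdft1 were not analysed here. Some genes of the original lists are not reported here and were left out of the lists and their counts.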

Additional observations from a re-analysis of the deposited data

How the results depend on the processing

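The direction of each member was the same in every alternative that was run. Members called lower, 2 in the report, numbered 1 with DESeq2, with scaling by library size alone and with the replicate block, 4 with no filter on low counts, 0 at an adjusted p under 0.01, and 0 to 2 when a mouse was left out (0 without vehicle mouse 1 or 2 or AG636 mouse 3). In the first 3 of these fits Insig1 was the call lost, with adjusted p values of 0.0568, 0.0515 and 0.0626. The median log2 fold change of the members was -0.80 to -0.52 when a mouse was left out. Over all genes, 1222 lower and 1146 higher calls became 913 and 1483 with library size alone, 325 and 231 at an adjusted p under 0.01, and 452 to 1298 and 399 to 1074 when a mouse was left out. With no filter on low counts these calls numbered 1620 lower and 1537 higher. The 12 lower calls among other pathway genes became 9 with library size alone (Msmo1, Scarb1 and Pdss2 were lost), 5 at an adjusted p under 0.01 and 5 to 12 without a mouse. The 3 higher calls became 5 with limma-voom, 6 with library size alone, 5 with no filter, 0 at an adjusted p under 0.01 and 0 to 6 without a mouse. The sign turned for Ggps1 (0.0836 with library size alone, -0.23 to 0.11 without a mouse), Insig2 (0.0212 with limma-voom, 0.0361 with library size alone, -0.26 to 0.22 without a mouse) and Srebf1 (-0.52 to 0.0113 without a mouse), none of which was called. The causes were not tested. Counts of promoter motifs among the members were unchanged with the upstream bases alone.

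Deviations from the group means correlated at -0.057, -0.178 and 0.224 between same-numbered mice and at -0.380 to 0.364 between the other pairs. With 3 mice a group these values cannot show whether same-numbered mice share more than a label. With the replicate block, calls over all genes went from 1222 lower and 1146 higher to 1046 lower and 914 higher. Among the members, the named pathway genes and the genes of like pattern, for which it was run, the replicate block changed the call of Insig1 and of no other. With 3 mice a group and 212 to 1328 reads a member, the 95% interval reached from -0.25 to 0.35 on the log2 scale for Hmgcs1 and from -1.53 to -0.15 for Idi1.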
